A study of Rattus norvegicus with 12 samples.

Results

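A set of 10 genes of the Notch pathway was followed in rat vascular smooth muscle cells (RVSMCs), namely the receptors *Notch1*, *Notch2* and *Notch3*, the ligand *Jag1*, the DNA-binding mediator *Rbpj*, the target repressors *Hes1*, *Hey1*, *Hey2* and *Heyl*, and the feedback inhibitor *Nrarp*. They were taken as the probe sets whose gene symbol in the array annotation was one of these names, which gave 1 probe set for each of the 10 genes among 15037 named genes and 23188 probe sets. The study examined *Alivec*, a long non-coding RNA induced by Angiotensin II (AngII), by knocking it down with a GapmeR, a chemically modified antisense DNA that leads RNase H to its target. RNA was profiled on Clariom S rat arrays, whose deposited values are log2 signals, and 12 arrays fell into 4 groups of 3.

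The first group received 100 nM of the GapmeR against *Alivec* (AlivecGap) for 48 h and then 100 nM AngII for 3 h. The second received the same amount of a non-targeting GapmeR (NCGap) and the same AngII treatment. The third received AlivecGap and PBS, and the fourth NCGap and PBS, PBS being the vehicle. All cells came from thoracic aortas, stripped of endothelium, of male Sprague–Dawley rats aged 12 weeks. All were grown in serum-containing medium, used at passage 3 or later and serum-depleted before treatment. A single GapmeR sequence stood for the knockdown. The labels call the replicates biological and do not say which animals or cultures they came from, so that each p-value reflects only how far arrays of a group differed, which may be technical. No probe set carried the name *Alivec*, and the knockdown itself was not checked here.

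Notch receptors are single-pass membrane proteins that are activated by Jagged or Delta-like ligands on a neighboring cell. Ligand binding leads to cleavage of the receptor, and the released intracellular domain enters the nucleus, where it joins RBPJ on DNA and switches on genes such as those of the HES and HEY families, which encode transcriptional repressors. In smooth muscle, NOTCH3 is the receptor best known from human arterial disease, JAG1 is known to promote expression of contractile genes, and HEY genes take part in building arteries during development.

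Over all 12 arrays the median log2 signal was 6.68 to 6.76, and between 59.8% and 62.2% of probe sets were at 6 or more, the floor below which the study removed signals. A probe set was tested where it reached 6 on at least 3 arrays, which kept 14796 probe sets and 9 of the 10 genes. *Heyl* was under 6 on all arrays and was not tested. All 10 smooth muscle markers had group means of at least 6, whereas 1 of 10 endothelial markers (*Esam*) and 1 of 7 leukocyte markers with a probe set (*Cd68*) did, and *Pecam1*, *Cdh5* and *Ptprc* were below it. Of 6 adventitial fibroblast markers with a probe set, 5 were above the floor and *Cd34* was below it. Fewer cells of a type and less RNA per cell cannot be told apart in such bulk samples.

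The regions around the transcription start sites of the *Hey2*, *Jag1* and *Hes1* genes are shown because *Jag1* and *Hey2* moved together with AngII, whereas *Hes1*, a gene with known RBPJ sites in the mouse, did not pass the test. Each sequence runs 5′ to 3′ on the strand of its gene and covers 250 bases before to 50 bases after the start (RefSeq, GRCr8). Capitals mark TGGGAA, the core of the sequence bound by RBPJ, or its reverse complement TTCCCA. *Hey2* lies at chr1:28640850-28641149, plus strand, *Jag1* at chr3:144894834-144895133, minus strand and *Hes1* at chr11:84212996-84213295, minus strand.
*Hey2*: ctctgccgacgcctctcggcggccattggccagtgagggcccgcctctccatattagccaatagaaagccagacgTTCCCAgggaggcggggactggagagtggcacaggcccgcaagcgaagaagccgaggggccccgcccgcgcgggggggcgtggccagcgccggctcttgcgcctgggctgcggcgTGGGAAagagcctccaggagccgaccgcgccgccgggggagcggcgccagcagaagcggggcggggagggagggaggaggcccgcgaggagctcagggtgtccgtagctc
*Jag1*: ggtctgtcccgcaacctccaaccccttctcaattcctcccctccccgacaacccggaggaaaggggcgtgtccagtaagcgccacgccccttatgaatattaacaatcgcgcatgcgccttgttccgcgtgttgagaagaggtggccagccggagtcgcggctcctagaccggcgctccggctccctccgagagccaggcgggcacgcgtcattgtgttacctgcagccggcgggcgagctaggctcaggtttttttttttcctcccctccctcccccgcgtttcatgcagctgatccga
*Hes1*: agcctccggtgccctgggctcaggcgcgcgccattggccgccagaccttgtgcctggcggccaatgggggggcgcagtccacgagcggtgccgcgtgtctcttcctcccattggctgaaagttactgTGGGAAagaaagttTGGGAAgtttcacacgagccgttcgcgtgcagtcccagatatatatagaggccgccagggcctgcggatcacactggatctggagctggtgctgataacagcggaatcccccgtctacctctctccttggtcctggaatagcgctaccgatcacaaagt

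Of the 10 genes, 9 had an entry in the RefSeq promoter table, the exception being *Hey1*. The letters TGGGAA, searched on both strands, were found in 4 of these 9 windows (*Notch3*, *Rbpj*, *Hes1* and *Hey2*) and in 25.7% of all 33469 windows of this length. With positions counted from the start site, the *Hey2* window held a copy at position -60 and a reverse copy at position -175, and the *Hes1* window held 2 copies in the same direction, at positions -123 and -109. The longer GTGGGAA, which contains the core, was present in *Hey2* at position -61 and in *Hes1* at position -124, and in 6.29% of all windows. The *Jag1* window held neither. Other letters searched were CACNAG, a site type bound by HES proteins, in 4 of the 9 windows and in 43.1% of all, CACGTG in that of *Nrarp* alone and in 6.42%, and TGANTCA and TGACGTCA, to which AP-1 and CREB factors bind, in none of the 9 and in 7.33% and 1.83% of all. These matches describe letters and were not tested for use in these cells.

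AngII lowered *Jag1* by about 2 units on the log2 scale and lowered *Hey1* and *Hey2*, while it raised *Notch1*, and these changes were found with either GapmeR. *Notch3* and *Rbpj* did not pass the test. At an adjusted p under 0.05 (limma over 14796 probe sets, Benjamini-Hochberg), 2 of the 9 tested genes were higher and 3 were lower with AngII in AlivecGap cells, where 10.8% of all tested probe sets were higher and 15.6% lower. In NCGap cells also 2 were higher and 3 lower, against 13.3% and 17.9% of all. The 2 higher genes were *Notch1* and, at the signal floor, *Nrarp* with AlivecGap, and *Notch1* and *Notch2* with NCGap. The 3 lower genes were the same with both. The median AngII difference over the 9 genes was 0.00 with AlivecGap and 0.05 with NCGap on the log2 scale, beside -0.04 and -0.05 over all tested probe sets. In the mean of both GapmeRs, 2 genes were higher (*Notch1* and *Notch2*) and 3 were lower (*Jag1*, *Hey1* and *Hey2*), where 16.1% of all tested probe sets were higher and 26.2% lower. The sizes of these genes' effects ranged widely, as the log2 signals of each array and the AngII differences show.

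**Figure D1:**
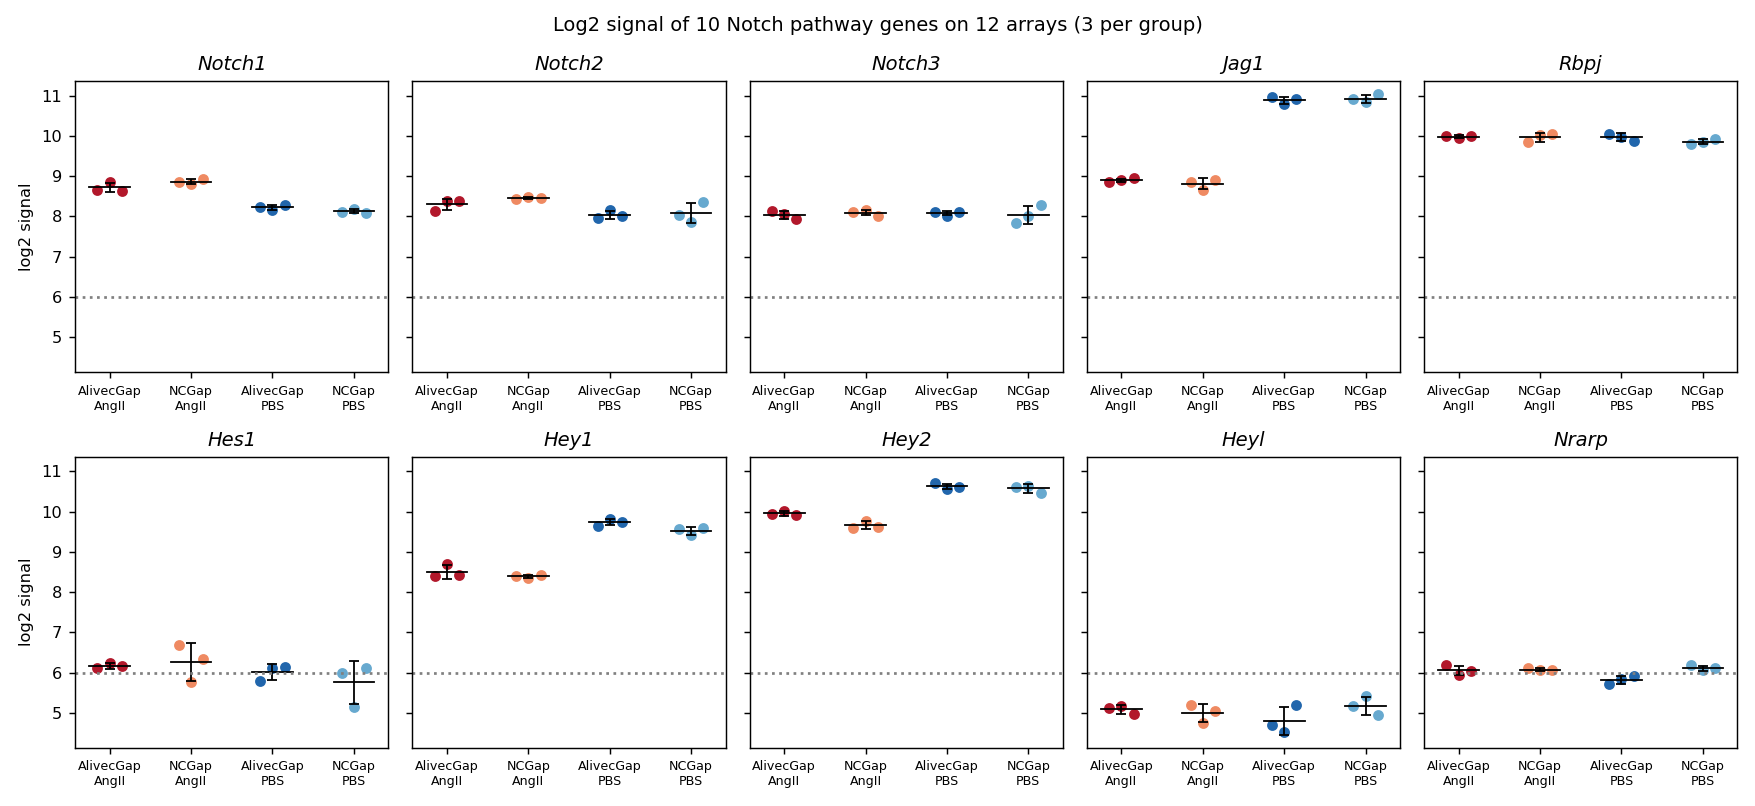
Log2 signal of each of the 10 genes (vertical axis) on the 3 arrays of each group (points), with the group mean (line) and SD (bar). The dotted line marks a log2 signal of 6. *Jag1*, *Hey1* and *Hey2* were lower on every AngII array than on any PBS array, *Notch1* was higher, *Heyl* stayed under 6, and *Hes1* and *Nrarp* lay close to it.

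**Figure D2:**
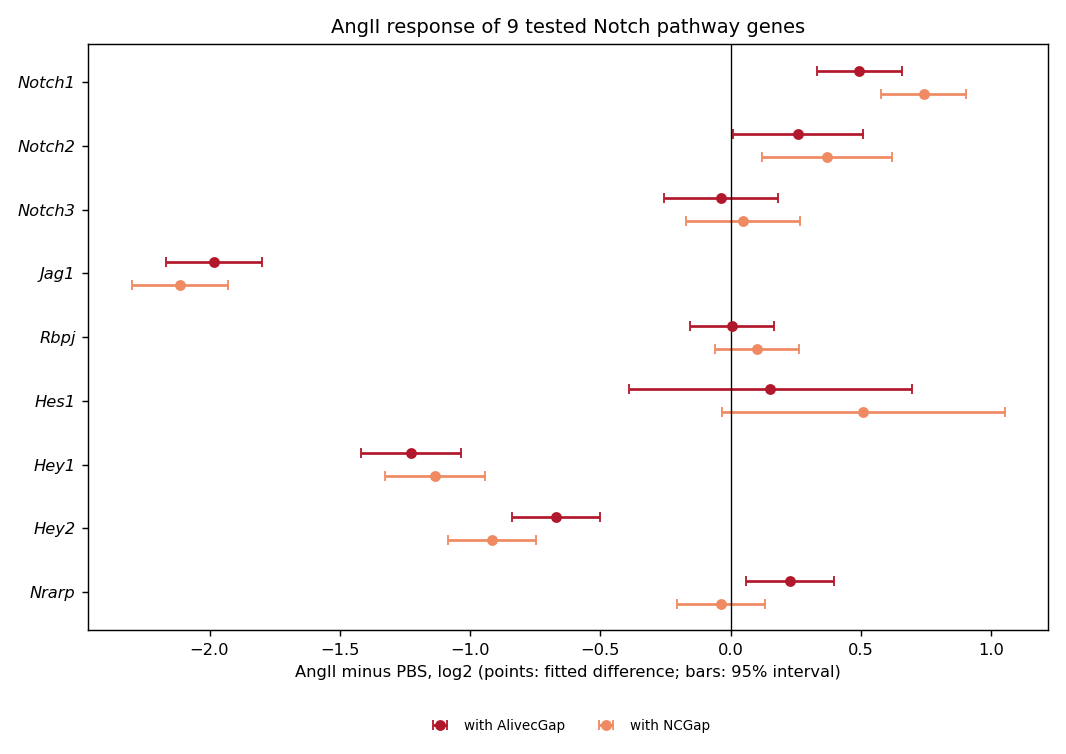
Difference between AngII and PBS on the log2 scale (horizontal axis) for the 9 tested genes, with AlivecGap and with NCGap. Points are fitted differences and bars are 95% intervals from limma, and the intervals of *Notch3*, *Rbpj* and *Hes1* included 0 with both GapmeRs.

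Among the receptors, *Notch1* had log2 signals of 8.66, 8.86 and 8.64 with AlivecGap and AngII, against 8.22, 8.16 and 8.29 with AlivecGap and PBS. With NCGap it had 8.87, 8.80 and 8.93 with AngII, against 8.11, 8.18 and 8.08 with PBS. Every AngII array lay above every PBS array. *Notch1* rose 1.41-fold in AlivecGap cells (log2 difference 0.49, SE 0.0749, limma adjusted p = 4.5e-04) and 1.67-fold in NCGap cells (log2 difference 0.74, SE 0.0749, adjusted p = 1.37e-05). Both calls held under every alternative run.

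*Notch2*, a receptor closely related to *Notch1*, gave 8.14, 8.37 and 8.39 with AlivecGap and AngII, against 7.97, 8.15 and 8.00 with AlivecGap and PBS. With NCGap the arrays read 8.44, 8.47 and 8.46 with AngII, against 8.04, 7.86 and 8.36 with PBS. The AngII arrays overlapped with the PBS arrays in AlivecGap cells and not in NCGap cells, where the third PBS array came close to them. *Notch2* rose 1.29-fold with NCGap (log2 difference 0.37, SE 0.115, limma adjusted p = 0.0273), and the log2 difference of 0.26 with AlivecGap did not pass (adjusted p = 0.123). In the mean of both GapmeRs it rose by 0.31 on the log2 scale (adjusted p = 0.0076). The NCGap call was lost when any NCGap AngII array was left out (adjusted p = 0.0596, 0.07 and 0.0608 without replicates 1, 2 and 3) or NCGap PBS replicate 1 or 2 (0.0805 and 0.0996). It was also lost with no filter on low signals (0.055), with no moderation of the spread (0.0591) and with a fit of only the groups compared (0.0665). The AlivecGap difference passed without NCGap PBS replicate 3 (0.0434) and with arrays quantile normalized once more (0.0321).

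*Notch3*, the receptor that is most characteristic of arterial smooth muscle, gave 8.13, 8.05 and 7.94 with AlivecGap and AngII, against 8.10, 8.01 and 8.11 with AlivecGap and PBS. With NCGap it gave 8.11, 8.15 and 8.02 with AngII, against 7.84, 8.01 and 8.28 with PBS. The groups overlapped throughout. The log2 differences were -0.04 (95% interval -0.26 to 0.18) with AlivecGap and 0.05 (-0.17 to 0.27) with NCGap. *Notch4*, the receptor known from endothelium, had group means of 6.34 and 6.36 with AngII in AlivecGap and NCGap cells, against 6.13 and 6.28 with PBS, and did not pass.

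The ligand *Jag1* changed most of the 10 genes. Its log2 signals were 8.86, 8.90 and 8.94 with AlivecGap and AngII, against 10.96, 10.78 and 10.91 with AlivecGap and PBS. In NCGap cells they were 8.86, 8.65 and 8.92 with AngII, against 10.91, 10.83 and 11.03 with PBS. AngII and PBS arrays stood far apart, and within each treatment the GapmeRs overlapped. *Jag1* fell to 0.253 of its PBS level in AlivecGap cells (log2 difference -1.98, SE 0.0846, limma adjusted p = 9.12e-09) and to 0.231 in NCGap cells (log2 difference -2.11, SE 0.0846, adjusted p = 4.31e-09). By the size of the decrease it ranked 5 among the 14796 tested probe sets in AlivecGap cells and 4 in NCGap cells. Over the alternatives, including the loss of any 1 array, the difference stayed between -2.03 and -1.95 with AlivecGap and between -2.17 and -2.03 with NCGap.

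Of 5 other ligand genes listed with a probe set, *Dll1*, *Dlk1* and *Dlk2* had no call, and *Dll3* and *Dll4* did not reach the signal floor. The 3 named genes whose signals followed *Jag1* most closely over the 12 arrays, of 10190 compared, were *Hs6st1* (Pearson's r = 0.997), a heparan sulfate 6-O-sulfotransferase gene, *Ackr3* (r = 0.993), which encodes an atypical chemokine receptor, and *Specc1l* (r = 0.992), which encodes a cytoskeletal protein. The AngII and PBS arrays form separate clusters for these genes, so that each coefficient mostly restates a shared AngII difference. Within the 6 AngII arrays the coefficients were 0.893, 0.172 and 0.0643, and within the 6 PBS arrays 0.25, -0.47 and 0.846. *Hs6st1* was lower with AngII by log2 differences of -1.56 with AlivecGap and -1.78 with NCGap, *Ackr3* by -2.06 and -2.07, and *Specc1l* by -0.73 and -0.82.

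*Rbpj*, whose product all 4 Notch receptors share as their partner on DNA, gave 9.99, 9.94 and 10.00 with AlivecGap and AngII, against 10.06, 9.98 and 9.88 with AlivecGap and PBS. In NCGap cells it gave 9.84, 10.01 and 10.04 with AngII, against 9.81, 9.85 and 9.92 with PBS. The groups overlapped. The log2 differences were 0.00 (95% interval -0.16 to 0.17) with AlivecGap and 0.10 (-0.06 to 0.26) with NCGap.

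Among the targets, *Hey1*, a repressor gene that Notch is known to activate directly, gave 8.39, 8.70 and 8.42 with AlivecGap and AngII, against 9.65, 9.81 and 9.73 with AlivecGap and PBS. In NCGap cells the signals were 8.39, 8.35 and 8.42 with AngII, against 9.58, 9.41 and 9.59 with PBS. No AngII array reached any PBS array. *Hey1* fell to 0.427 of its PBS level with AlivecGap (log2 difference -1.23, SE 0.0883, limma adjusted p = 9.15e-07) and to 0.455 with NCGap (log2 difference -1.13, SE 0.0883, adjusted p = 1.47e-06). It ranked 33 and 65 among all tested probe sets by the size of its decrease.

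*Hey2*, the HEY gene known for its part in arterial identity, gave 9.93, 10.03 and 9.91 with AlivecGap and AngII, against 10.70, 10.56 and 10.62 with AlivecGap and PBS. In NCGap cells it gave 9.59, 9.77 and 9.61 with AngII, against 10.62, 10.65 and 10.46 with PBS. It was lower on each AngII array than on any PBS array. *Hey2* fell to 0.629 of its PBS level with AlivecGap (log2 difference -0.67, SE 0.077, limma adjusted p = 5.3e-05) and to 0.53 with NCGap (log2 difference -0.92, SE 0.077, adjusted p = 2.88e-06). The calls of *Jag1*, *Hey1* and *Hey2* held with both GapmeRs under every alternative run, including each array left out.

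*Hes1*, the best known Notch target, was close to the signal floor. It gave 6.11, 6.24 and 6.15 with AlivecGap and AngII, against 5.79, 6.10 and 6.14 with AlivecGap and PBS. In NCGap cells it gave 6.69, 5.77 and 6.34 with AngII, against 5.99, 5.15 and 6.12 with PBS, replicate 2 being the lowest of its group under both treatments. The groups overlapped, and the spread within the NCGap groups was wide (SD 0.467 with AngII and 0.529 with PBS). The log2 difference of 0.15 with AlivecGap (95% interval -0.39 to 0.70) and that of 0.51 with NCGap (-0.03 to 1.05, adjusted p = 0.146) did not pass. The NCGap difference passed without NCGap AngII replicate 2 (adjusted p = 0.0369). The other HES genes that were tested, 4 in number, had no call with either GapmeR.

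*Heyl*, the remaining HEY gene, read between 4.52 and 5.41 on all arrays, under the floor. Its group means were 5.09 and 4.99 with AngII in AlivecGap and NCGap cells, against 4.80 and 5.17 with PBS, and no difference between them is given. *Nrarp*, a Notch target whose product limits Notch signaling, also lay at the floor, with 6.18, 5.94 and 6.03 with AlivecGap and AngII, against 5.71, 5.85 and 5.91 with AlivecGap and PBS. In NCGap cells it gave 6.10, 6.06 and 6.05 with AngII, against 6.18, 6.05 and 6.10 with PBS. The 3 arrays with AlivecGap and PBS were the lowest of the 12. The log2 difference of 0.23 with AlivecGap passed the test (adjusted p = 0.0474), which amounts to at least 1.04-fold with the PBS mean set to the floor, and that of -0.04 with NCGap did not (adjusted p = 0.761). The AlivecGap call was lost when 10 of the 12 arrays were left out in turn, all but AlivecGap AngII replicate 2 and AlivecGap PBS replicate 3, with adjusted p between 0.0506 and 0.183. It was also lost in 5 of the 7 other settings, namely with no filter on low signals (0.104), arrays quantile normalized once more (0.0805), a prior that follows the mean signal (0.248), only the groups compared (0.0902) and a replicate block (0.0533).

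Of 5 tested markers of adventitial fibroblasts, *Pdgfra* and *Lum* were lower with AngII at an adjusted p under 0.05 with both GapmeRs. The others had no call, and 15.6% of all tested probe sets were lower with AlivecGap and 17.9% with NCGap. Log2 differences of the 5 ran from -0.47 to 0.08 with AlivecGap and from -0.58 to -0.05 with NCGap. The summed linear signal of the 6 markers was 3100 to 3411 over the AngII arrays and 3560 to 3939 over the PBS arrays in AlivecGap cells, and 2394 to 2815 with AngII and 3066 to 3233 with PBS in NCGap cells. *Lum* had the highest signal of the 6 and weighs most in this sum. The 10 endothelial markers summed to between 452 and 542 over all arrays, with 9 of them under the floor in every group. Of 10 smooth muscle markers, 3 were lower and 1 higher with AngII in AlivecGap cells at an adjusted p under 0.05, where 10.8% of all tested probe sets were higher. In NCGap cells 4 were lower and 1 higher, where 13.3% of all were higher. The higher marker was *Myocd* in both, with log2 differences of 0.32 and 0.37. The part of these markers in the AngII results was not tested.

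The knockdown comparison asks whether AlivecGap changed the pathway in cells given AngII or in cells given PBS. At the study's thresholds (at least 1.2-fold and an unadjusted p under 0.05), 1 of the 9 genes was higher with AlivecGap than with NCGap in AngII-treated cells (*Hey2*) and none was lower, where 2.86% of all tested probe sets were higher and 3.24% lower. In PBS-treated cells none was higher and 1 was lower (*Nrarp*), where 2.24% were higher and 2.69% lower. At an adjusted p under 0.05, none of the 9 was called with either treatment or in the mean of both. That adjusted threshold called 0.338% of all tested probe sets as higher and 0.48% as lower with AngII, and 0.196% and 0.203% with PBS. The median difference over the 9 genes was -0.02 with AngII and 0.05 with PBS on the log2 scale, beside 0.00 with either treatment over all tested probe sets.

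**Figure D3:**
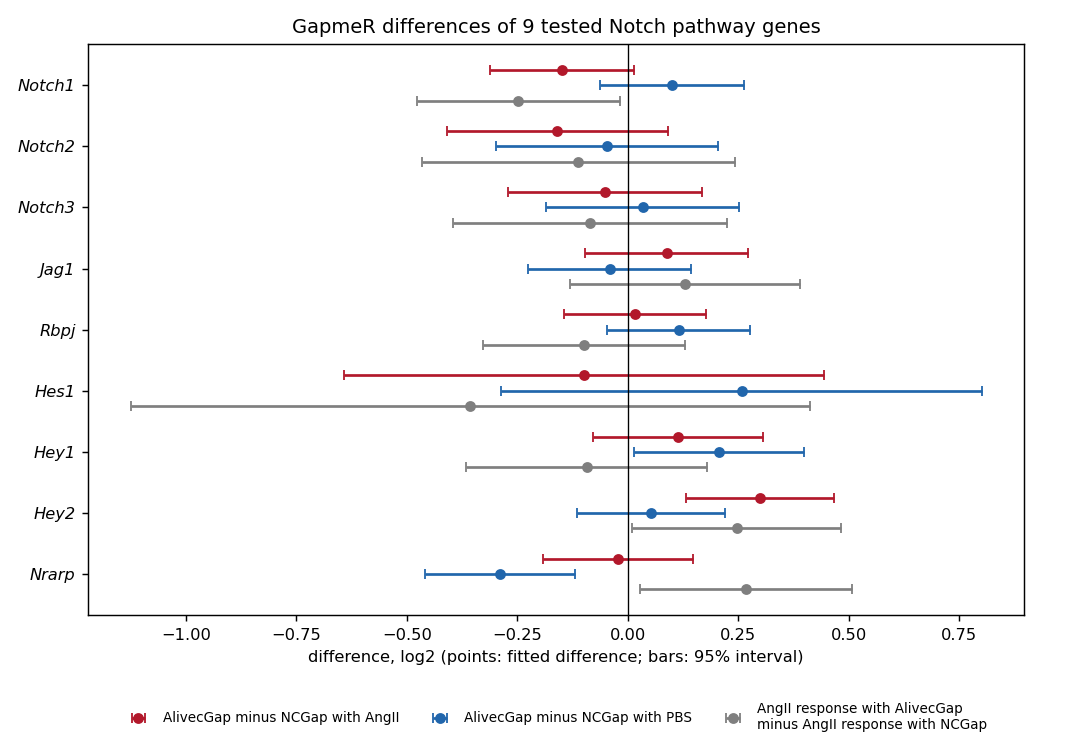
Differences on the log2 scale (horizontal axis) for the 9 tested genes, with AlivecGap minus NCGap under AngII and under PBS, and the difference between the AngII responses with AlivecGap and with NCGap. Points are fitted differences and bars are 95% intervals from limma. The bars that lie clear of 0 are those of *Hey2* under AngII, of *Hey1* and *Nrarp* under PBS, and of *Notch1*, *Hey2* and *Nrarp* for the difference between responses.

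With AngII, the 3 AlivecGap arrays of *Hey2* (9.93, 10.03 and 9.91) all lay above the 3 NCGap arrays (9.59, 9.77 and 9.61), which made it 1.23-fold higher with AlivecGap (log2 difference 0.30, SE 0.077, 95% interval 0.13 to 0.47, limma unadjusted p = 0.00211). After adjustment over all probe sets the p was 0.108. It passed at 0.01 with a prior that follows the mean signal. It did not pass with no filter on low signals (0.25) or with a floor of 6 on all 12 arrays (0.0798). Nor did it pass with arrays centred on their medians (0.134) or quantile normalized once more (0.137). *Hey2* stayed past the study's thresholds without any 1 array. With PBS its difference was 0.05 (-0.11 to 0.22), and the groups overlapped. The AngII decrease of *Hey2* was smaller by 0.25 on the log2 scale with AlivecGap than with NCGap (95% interval 0.01 to 0.48, unadjusted p = 0.0428, adjusted p = 0.898), a difference of 1.19-fold that falls short of the study's fold threshold. It passed that threshold without AlivecGap AngII replicate 3 (0.27), NCGap AngII replicate 2 (0.30), AlivecGap PBS replicate 1 (0.28) or NCGap PBS replicate 3 (0.31).

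*Hey1* was 1.15-fold higher with AlivecGap than with NCGap in PBS-treated cells (log2 difference 0.21, 95% interval 0.01 to 0.40, unadjusted p = 0.0368, adjusted p = 0.468), with no overlap between its arrays and below the fold threshold. In AngII-treated cells the difference was 0.11 (-0.08 to 0.31). *Jag1* differed by 0.09 (-0.10 to 0.27) with AngII and by -0.04 (-0.23 to 0.14) with PBS, which bounds any GapmeR difference in this gene far below its AngII decrease.

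The receptors had no GapmeR call. The log2 difference of *Notch1* between AlivecGap and NCGap was -0.15 in AngII-treated cells (95% interval -0.31 to 0.02, unadjusted p = 0.0716), and 0.10 in PBS-treated cells (-0.06 to 0.26). Its AngII increase was smaller with AlivecGap by a log2 difference of -0.25 (-0.48 to -0.02, unadjusted p = 0.0374, adjusted p = 0.898), which is 1.19-fold and under the fold threshold. It passed that threshold without AlivecGap AngII replicate 2 (-0.32), NCGap AngII replicate 2 (-0.28), AlivecGap PBS replicate 2 (-0.28) or NCGap PBS replicate 2 (-0.28), and with arrays centred on their medians (-0.28). The 3 AlivecGap arrays of *Notch2* lay below the 3 NCGap arrays with AngII, and the log2 difference of -0.16 did not pass (unadjusted p = 0.191). *Notch3* and *Rbpj* differed by -0.05 and 0.02 with AngII and by 0.03 and 0.12 with PBS, with overlapping groups.

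*Nrarp* was the only gene of the 9 past the study's thresholds in PBS-treated cells. Its 3 AlivecGap arrays (5.71, 5.85 and 5.91) were all under the floor and under the 3 NCGap arrays (6.18, 6.05 and 6.10), a log2 difference of -0.29 (95% interval -0.46 to -0.12, limma unadjusted p = 0.00295, adjusted p = 0.171). With the AlivecGap mean set to the floor it is at least 1.08-fold lower. The call was lost, by its fold, without AlivecGap PBS replicate 1 (-0.23) or NCGap PBS replicate 1 (-0.25) and with arrays quantile normalized once more (-0.25), and by its p with a prior that follows the mean signal (unadjusted p = 0.0525). *Nrarp* was also the only 1 of the 9 past the study's thresholds in the difference between AngII responses, where 4.68% of all tested probe sets passed (log2 difference 0.27, 95% interval 0.03 to 0.51, unadjusted p = 0.032), and 0% of all passed at an adjusted p under 0.05. That call was lost without replicate 1 of AlivecGap with AngII, of AlivecGap with PBS or of NCGap with PBS, and without replicate 2 or 3 of NCGap with AngII (unadjusted p up to 0.087). It was also lost with arrays centred on their medians (unadjusted p = 0.0612), with arrays quantile normalized once more (0.0903) and with a prior that follows the mean signal (0.196). *Hes1* differed by -0.10 (-0.64 to 0.45) with AngII and by 0.26 (-0.29 to 0.80) with PBS, intervals too wide to place it.

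Of the 5 tested adventitial fibroblast markers, *Dcn* and *Mfap5* were higher with AlivecGap than with NCGap in AngII-treated cells (1.49-fold and 1.41-fold, limma adjusted p = 0.0283 and 0.0461). At that threshold 0.338% of all tested probe sets were higher. The difference was not confined to AngII. With PBS the group means were 9.28 against 8.78 for *Dcn* and 9.43 against 9.09 for *Mfap5*. There 2 of the 5 markers were higher at the study's thresholds and 0 at an adjusted p under 0.05. In the mean of both treatments 2 of the 5 were higher at an adjusted p under 0.05, beside 1.08% of all. The summed linear signal of the 6 markers was 3100 to 3411 with AlivecGap and 2394 to 2815 with NCGap in AngII-treated cells, and 3560 to 3939 with AlivecGap and 3066 to 3233 with NCGap in PBS-treated cells. The part of these markers in the GapmeR differences of *Hey2* and *Nrarp* was not tested.

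The rest of the pathway was taken from a list of 67 further symbols, of which 51 had a probe set and 46 were tested. With AlivecGap, 5 of the 46 were higher and 3 lower with AngII at an adjusted p under 0.05, and with NCGap 6 were higher and 8 lower, shares that lie near or below those of all tested probe sets. In the mean of both GapmeRs 10 were higher and 10 lower, where 16.1% of all tested probe sets were higher and 26.2% lower. None of the 46 changed as much as *Jag1*, *Hey1* or *Hey2*, their mean AngII differences running from -0.56 to 0.39 on the log2 scale.

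**Figure D4:**
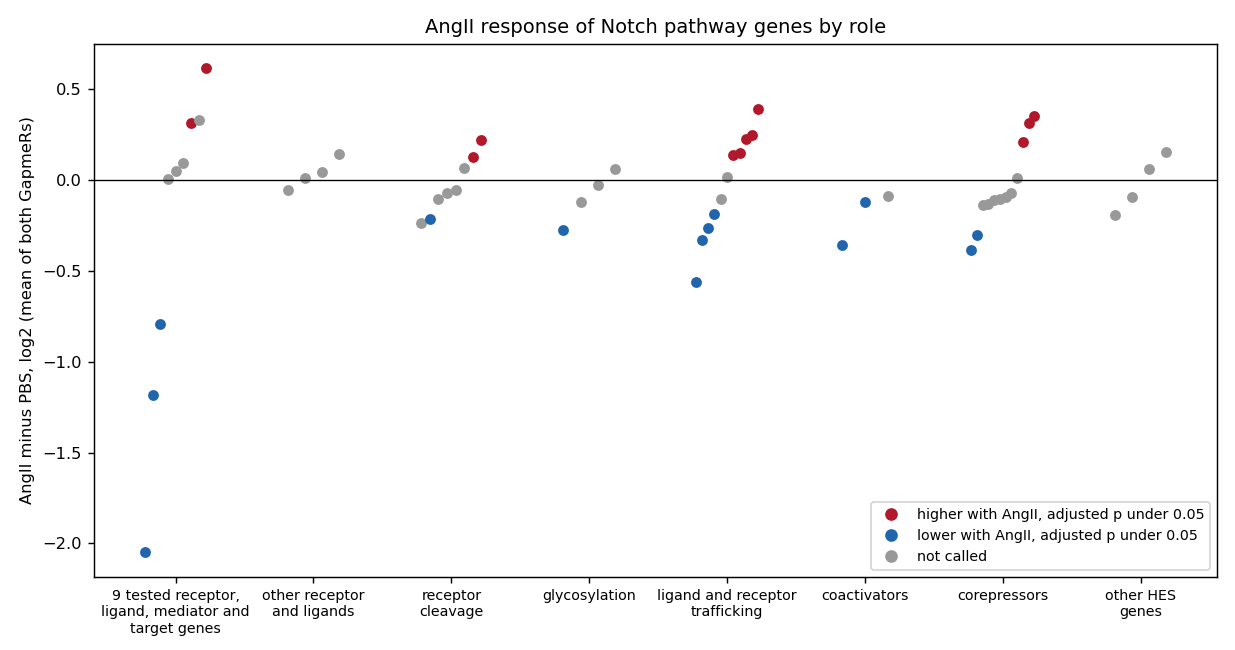
AngII minus PBS on the log2 scale, as the mean of both GapmeRs (vertical axis), for the 9 tested receptor, ligand, mediator and target genes and for 46 further pathway genes by role. Each point is a gene, and colors mark an adjusted p under 0.05. The decreases of *Jag1* (-2.05), *Hey1* (-1.18) and *Hey2* (-0.79) lie below every gene of the other roles.

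Among genes of ligand and receptor trafficking, *Neurl2*, of the Neuralized family of ubiquitin ligases, fell by 0.49 on the log2 scale with AlivecGap and by 0.63 with NCGap (limma adjusted p = 9.55e-04 and 1.07e-04). *Numb*, whose product is known as an inhibitor of Notch receptors, rose by 0.31 and 0.47 (adjusted p = 0.00841 and 4.5e-04). *Dtx3l*, of the Deltex family, passed only in the mean of both GapmeRs (log2 difference -0.33, adjusted p = 0.0371). In this role 5 of 11 genes were higher and 4 lower in that mean, beside the 16.1% and 26.2% of all tested probe sets.

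Among 12 corepressor genes, 3 were higher and 2 lower in the mean of both GapmeRs, against the same shares of all tested probe sets. The Groucho-related genes *Tle4* and *Tle3*, whose products work with HES proteins, rose by 0.31 and 0.34 with AlivecGap and by 0.40 and 0.29 with NCGap, and passed with each. *Tle5*, of the same family, went the other way. Its group means were 10.24 with AngII against 10.48 with PBS in AlivecGap cells, and 10.05 against 10.40 in NCGap cells. *Cir1*, which encodes an RBPJ-interacting corepressor, had log2 differences of -0.33 and -0.44 and also passed with each (adjusted p = 0.0147 and 0.00193). Of the 3 coactivator genes tested, the acetyltransferase genes *Kat2a* (-0.35) and *Crebbp* (-0.12) were lower in the mean of both GapmeRs.

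Genes of receptor cleavage moved little. The γ-secretase genes *Aph1a* (0.22) and *Psenen* (-0.21) and the receptor convertase gene *Furin* (0.13) passed in the mean of both GapmeRs, in different directions. Of the glycosylation genes, *Poglut1*, which encodes an O-glucosyltransferase of Notch receptors, was lower in that mean (-0.27, adjusted p = 0.00456). No gene of the other receptor and ligand role or of the other HES genes was called.

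Past the study's thresholds for AlivecGap against NCGap were 2 of the 46 with AngII and 2 with PBS, where 2.86% of all tested probe sets were higher and 3.24% lower with AngII, and 2.24% and 2.69% with PBS. These counts lie near the background. With AngII the genes were *Kat2a* (higher, log2 difference 0.35, limma unadjusted p = 0.0253) and *Poglut1* (lower, -0.30, unadjusted p = 0.00672). With PBS they were *Adam17*, which encodes a protease that cleaves Notch (higher, 0.27, unadjusted p = 0.0353), and *Pofut1*, which encodes the Notch O-fucosyltransferase (lower, -0.35, unadjusted p = 2.19e-04, adjusted p = 0.0532). In the difference between AngII responses, *Pofut1* (0.27, unadjusted p = 0.0137) and *Poglut1* (-0.29, unadjusted p = 0.0436) passed these thresholds. These are 2 of the 46, where 4.68% of all tested probe sets passed, and 0% of all did at an adjusted p under 0.05. None of the 4 passed an adjusted p under 0.05 within a treatment. In the mean of both treatments *Pofut1* did (log2 difference -0.21, limma adjusted p = 0.0353), as the only one of the 46, where 1.08% of all tested probe sets were higher and 1.65% lower at that threshold.

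Of 8 smooth muscle genes known as Notch targets, 7 were tested, and 3 were lower with AngII under both GapmeRs while none was higher, where 15.6% of all tested probe sets were lower and 10.8% higher with AlivecGap, and 17.9% and 13.3% with NCGap. *Myh11*, the smooth muscle myosin heavy chain gene, had log2 differences of -0.42 with AlivecGap and -0.44 with NCGap (limma adjusted p = 0.002 and 0.00113). *Smtn*, which encodes the contractile protein smoothelin, had -0.29 and -0.38 (adjusted p = 0.0113 and 0.00169), and the receptor gene *Pdgfrb* had -0.23 and -0.38 (adjusted p = 0.0247 and 9.51e-04). *Acta2* (-0.10 and -0.07), *Tagln* (-0.07 and -0.07), *Cnn1* (-0.03 and -0.00342) and *Rgs5* (0.05 and -0.04), the last with group means under the floor, did not pass. *Itgb3* was not tested. *Acta2*, *Myh11*, *Tagln*, *Cnn1* and *Smtn* were also on the list of smooth muscle markers, so the counts of both lists share these genes. None of the 7 was past the study's thresholds for AlivecGap against NCGap. At an adjusted p under 0.05 in the mean of both treatments 1 was lower, *Cnn1*, which encodes the contractile protein calponin (log2 difference -0.25, limma adjusted p = 0.0117). Its signals were 11.26, 11.29 and 11.29 with AlivecGap and AngII, against 11.53, 11.54 and 11.55 with NCGap and AngII, and 11.39, 11.33 and 11.21 with AlivecGap and PBS, against 11.54, 11.51 and 11.58 with NCGap and PBS. The AlivecGap arrays all lay below the NCGap arrays of the same treatment.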

How the data were processed

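Total RNA from RVSMCs was hybridized to Clariom S rat arrays, 3 per group. The authors deposited log2 signals for 23188 probe sets, computed from the scanned arrays by Robust Multichip Average in Partek. Its background settings and the build behind the probe sets are not named in the labels or methods. Gene symbols came from the platform annotation, which named 15049 probe sets with 1 symbol and 8139 with none. Each gene had 1 probe set, and no level is set against that of another probe set.

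The 4 group means were fitted with lmFit and eBayes of limma 3.58.1 in R 4.3.3 (4.08 prior degrees of freedom), for the 14796 probe sets that reached 6 on 3 or more of the 12 arrays. P-values were adjusted by Benjamini-Hochberg over all of them. AngII differences were called at an adjusted p under 0.05, and GapmeR differences and the interaction at the thresholds of the methods (1.2-fold, unadjusted p under 0.05) and also by adjusted p. The study used analysis of variance, for which no terms were named. A group mean under 6 was set to 6 for a fold given as a bound. The number of arrays limits the precision. The fit was tried on simulated arrays with planted increases for AngII against PBS with NCGap. The motif search was tried on a made sequence with a planted motif.

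The 10 genes, the lists and the rule for named genes were chosen with earlier results of these data known. Named were the 10 genes, in each role the 3 tested genes with the largest mean AngII effect among those called in it, every pathway gene past the study's thresholds in a GapmeR comparison, all tested smooth muscle Notch targets, and the 3 genes most correlated with *Jag1*. *Notch4*, *Tle5*, *Pdgfra*, *Lum*, *Dcn*, *Mfap5* and *Myocd* were named after their values were seen. Alternatives were other filters, arrays centred or quantile normalized again, other priors, only the groups compared, the replicate number as a block, and each array left out. Promoter windows came from RefSeq (GRCr8).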

Additional observations from a re-analysis of the deposited data

Results flagged for a closer look

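*Nrarp* passed the study's thresholds for a difference in AngII response between the GapmeRs (limma unadjusted p = 0.032 for the interaction, log2 difference 0.27, adjusted p = 0.898). So did 4.68% of all tested probe sets, and 0% passed at an adjusted p under 0.05. The log2 AngII difference of *Nrarp* was 0.23 with AlivecGap and -0.04 with NCGap. Its signals ran between 5.71 and 6.18 on the 12 arrays, at the floor of 6, and the interaction kept its call in 7 of 12 fits with 1 array left out and in 3 of 6 other settings. It was lost with arrays centred on their medians (unadjusted p = 0.0612), with arrays quantile normalized once more (0.0903) and with a prior that follows the mean signal (0.196).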

How the results depend on the processing

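The AngII calls of *Notch1*, *Jag1*, *Hey1* and *Hey2* kept their direction and passed with both GapmeRs under all alternatives. The number of the 9 genes called for AlivecGap against NCGap with AngII at an adjusted p was 1 with a prior that follows the mean signal. The number called with PBS at the study's thresholds was 0 with arrays quantile normalized once more and with that prior, and 0 to 1 with 1 array left out. It was also 0 with a floor of 6 on all 12 arrays, where *Nrarp* was not tested and could not be called. The number called for the interaction was 0 under the same 3 settings and 0 to 2 with 1 array left out. With arrays centred on their medians it was 1, as with the deposited values, but the gene was *Notch1* (log2 difference -0.28, unadjusted p = 0.0218) and not *Nrarp* (0.23, unadjusted p = 0.0612).

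Only differences without a call changed sign, among them that of *Hes1* with PBS, which was 0.26 with all arrays. With arrays quantile normalized once more, the AngII difference with AlivecGap was 0.0199 for *Notch3* and -0.00966 for *Rbpj*. With arrays centred on their medians, the AngII difference of *Nrarp* with NCGap was 0.0196 and the GapmeR difference of *Rbpj* with AngII was -0.00112. With 1 array left out, the AngII difference ran from -0.0799 to 0.0133 for *Notch3* and -0.0426 to 0.0463 for *Rbpj* with AlivecGap and -0.0537 to 0.168 for *Notch3* with NCGap. The AlivecGap minus NCGap difference then ran -0.0454 to 0.0536 for *Rbpj*, -0.348 to 0.115 for *Hes1* and -0.0866 to 0.035 for *Nrarp* with AngII, and -0.163 to 0.0904 for *Notch2*, -0.0695 to 0.153 for *Notch3*, -0.0873 to 0.0141 for *Jag1*, -0.0455 to 0.441 for *Hes1* and -0.00566 to 0.0903 for *Hey2* with PBS. The interaction ran -0.25 to 0.00336 for *Notch2* and -0.205 to 0.0176 for *Notch3*.

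The labels do not say what a shared replicate number stands for, and it was not taken as a pairing. Deviations of same-numbered arrays correlated between -0.0938 and 0.323, with 17 of 18 pairs above 0 and 9 above 0.1, against -0.338 to 0.272 for other numbers, with 12 of 36 above 0. In 9 of 12 arrays the highest mean correlation was with arrays of their own number, a hint from the data and not from the design. With a replicate block, *Nrarp* lost its AngII call with AlivecGap (log2 difference 0.229, adjusted p = 0.0533), no other call of the 9 genes changed, and the calls over all probe sets rose in each comparison, to 4147 instead of 3894 for AngII with AlivecGap, 4919 instead of 4620 for AngII with NCGap, 974 instead of 903 and 795 instead of 729 for the GapmeRs with AngII and with PBS, and 806 instead of 692 for the interaction.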
